A study of Rattus norvegicus with 7 samples.

Results

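Ion pumps, exchangers, chloride cotransporters and metal carriers were followed in rat brain through the first week after an embolic stroke. The genes were chosen by symbol alone, as the SLC4, SLC8, SLC9, SLC11, SLC12, SLC20, SLC24, SLC30, SLC39, SLC40 and SLC41 families of solute carriers and the Atp1 and Atp2 pump subunits. By this rule 67 of 13337 genes on the array were members. Male Wistar rats weighing 280 to 320 g were used, and their age was not given. Stroke was induced by injecting an embolus into the middle cerebral artery (eMCAo), and tissue was taken at 12, 24, 48, 72, 120 and 168 hrs. Normal rats, which per the study's methods had no surgery, served as the reference. 7 Illumina bead arrays were made, 1 for normal and 1 for each time, each from 400 ng of total RNA. The labels call the tissue ischemic brain on all 7, name no brain region, and do not say whether 1 animal or several gave the RNA.

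Each group had 1 array, so no time point could be tested against normal, and precision is limited by the small number of arrays. A gene was taken as detected when its intensity was above the detection limit of the array, which lay between 8.72 and 10.1 intensity units, and between 8656 and 9066 genes were detected per array. A gene was counted as past the size rule when its normalised intensity was at least 2-fold above or below normal and it was detected on either array. Folds are ratios of intensities to which 16 units had been added, which understates the change of dim genes. For a gene that the dimmer array did not detect, the lowest level counted as detected took the place of its value, which makes the fold a bound ("at least"). Intensities are given as deposited, and differences and folds after normalization between arrays. The 2 arrays most alike, those of 72 and 120 hrs, had 131 of 9415 genes at least 2-fold apart, and 0 of 56 members.

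The intensity of markers of some cell types and brain regions differed between arrays. The summed intensity of 7 striatal neuron markers was 13237 on the normal array and between 1711 and 4950 after occlusion. That of 7 choroid plexus markers was 5885 on the normal array, 19660 at 12 hrs and between 1837 and 8870 later. That of 4 hypothalamic markers was 137 on the normal array, 6910 at 120 hrs and between 197 and 2796 at the other times. In tissue RNA, fewer cells of a type and less RNA per cell cannot be told apart, and the part of these shifts in the values of the carriers was not tested.

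Ion pumps spend ATP to move sodium, potassium and calcium against their gradients, and the sodium gradient in turn drives exchangers that move calcium, protons, bicarbonate and chloride. In brain these proteins set the resting potential, clear calcium after each action potential and fix the direction of the chloride current at inhibitory synapses. In ischemia ATP runs short, the pumps slow, and sodium, calcium and chloride accumulate in cells. Zinc is stored in synaptic vesicles of glutamatergic neurons, and iron is set free when blood and dying cells are broken down, so carriers of both metals are studied in stroke.

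Of the 67 members, 61 were detected on at least 1 array and 38 on all 7. The 6 never detected were Atp1b4, Atp2b4, Slc12a3, Slc30a8, Slc4a8 and Slc4a9. 13 members passed the size rule at 1 or more times, 8 below normal and 5 above, and 48 detected members never passed it. The 8 low genes carry calcium, chloride, bicarbonate or protons, and the 5 high genes carry zinc, iron or other divalent metals. 0 members passed the rule at all 6 times. Of the 61 detected genes, 19 lay below normal on all 6 arrays, 14 lay above on all 6 and 28 lay on both sides. Sides were counted also on arrays that did not detect the gene. No share over all genes is given beside these totals, and all 6 differences of a gene rest on the same normal array.

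**Figure D1:**
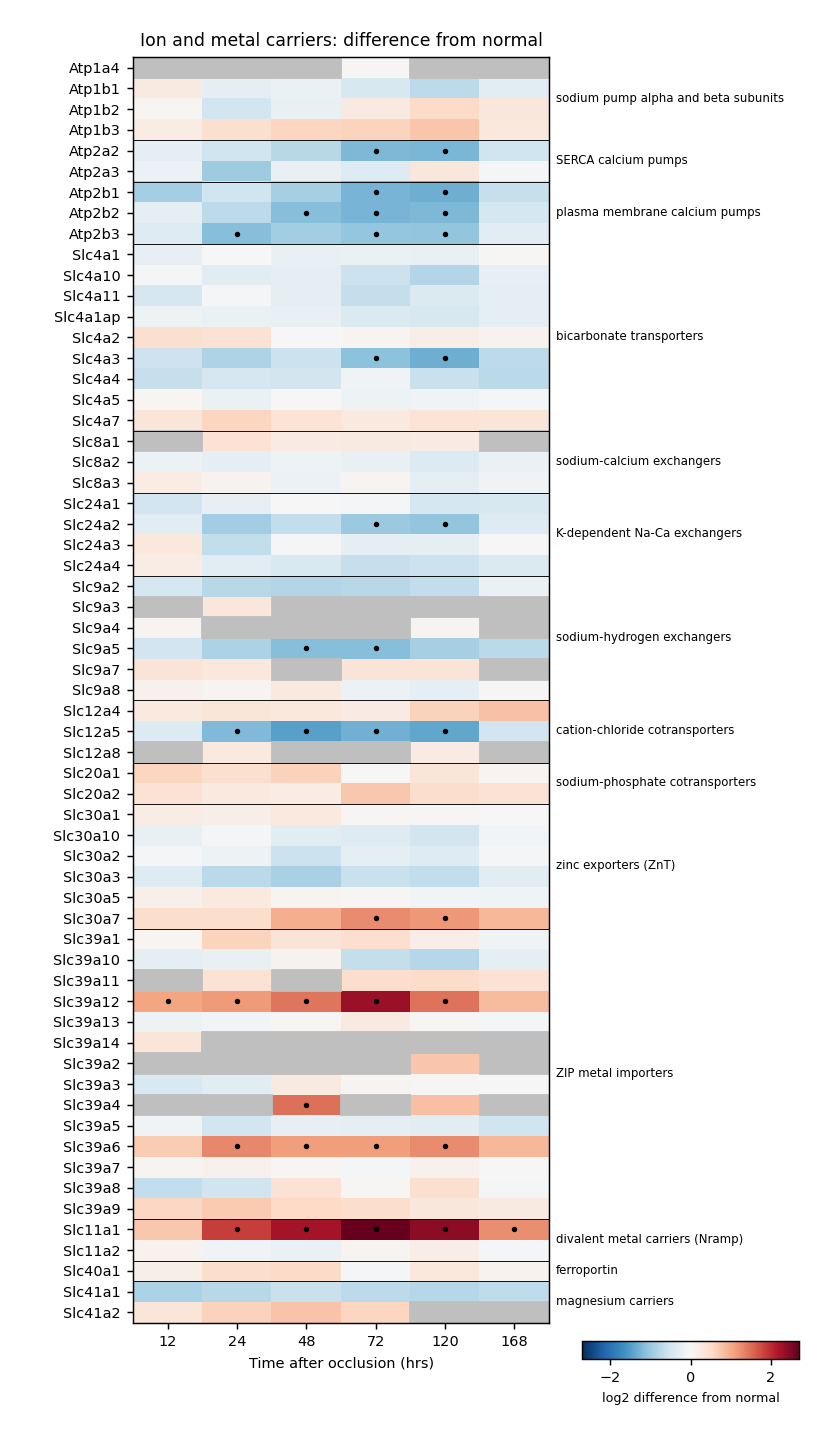
Colours give the log2 difference from normal of the 61 detected members (rows, grouped by family) at 6 times (columns, hrs after occlusion). Dots mark differences past the size rule, and grey cells were detected on neither array. The plasma membrane calcium pumps are blue throughout, and Slc11a1 and Slc39a12 are the darkest red rows.

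The counts of members at least 2-fold lower than normal were highest at 72 and 120 hrs. At 12 hrs 1 of 54 detected members was at least 2-fold higher (all genes 3.16%) and 0 were lower (all genes 0.903%). At 24 hrs 3 of 56 were higher (all genes 4.55%) and 2 were lower (all genes 2.69%). At 48 hrs 4 of 53 were higher (all genes 6.04%) and 3 were lower (all genes 2.63%). Up to this point the shares were near those of all genes or rested on a few genes. At 72 hrs 4 of 55 were higher (all genes 8.28%) and 8, or 14.5%, were lower (all genes 4.01%). At 120 hrs 4 of 57 were higher (all genes 9.09%) and 7, or 12.3%, were lower (all genes 4.78%). At 168 hrs 1 of 51 was higher (all genes 5.01%) and 0 were lower (all genes 0.914%). The medians of the members were between -0.09 and 0.06 (log2), and those of all genes between -0.07 and -0.02.

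**Figure D2:**
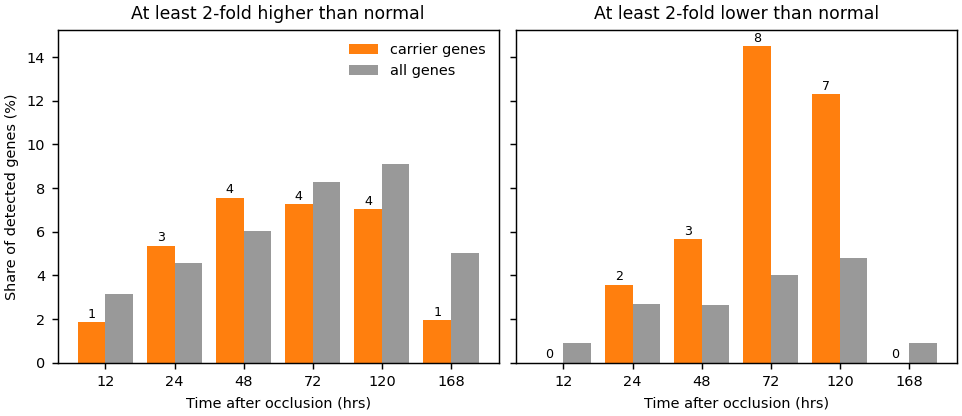
Bars give the percentage of detected carrier genes (orange, with their number) and of all detected genes (grey) at least 2-fold above (left) or below normal (right) at 6 times (hrs after occlusion). The orange bars on the right reach 14.5% at 72 hrs and 12.3% at 120 hrs, where the grey bars are at 4.01% and 4.78%.

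The split between higher and lower depended on the scaling of the arrays. At 72 hrs it was 4 higher and 8 lower after quantile normalization, 4 and 7 with median scaling, and 5 and 1 with no normalization between arrays. At 120 hrs it was 4 and 7, 4 and 7, and 4 and 4. At 48 hrs it was 4 and 3, 4 and 3, and 5 and 2. Without normalization the all-gene median difference from normal was 0.18 (log2) at 72 hrs and 0.13 at 120 hrs, in place of -0.06 and -0.07.

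Genes of the plasma membrane calcium pumps lay below normal at every time. The plasma membrane calcium pumps push calcium out of the cell, and all 3 detected members of the family passed the size rule at both 72 and 120 hrs. Atp2b1, the most widely expressed pump of the family, had an intensity of 3432 on the normal array and 1889, 2508, 1906, 1780, 1570 and 2280 in order of time. At 72 and 120 hrs it was 2.39-fold and 2.5-fold lower, and no post-occlusion array reached the normal value. Atp2b2, a fast pump of neurons, had an intensity of 138 on the normal array and 117, 84.4, 56.1, 56.0, 57.7 and 95.5 afterwards. It was 2.20-fold, 2.38-fold and 2.31-fold lower at 48, 72 and 120 hrs, 3 times with nearly the same intensity. With an offset of 50 it was at -0.89, -0.97 and -0.94 (log2) and passed the rule at none of them. Atp2b3, a pump found mainly in neurons, had an intensity of 1793 on the normal array and 1453, 852, 965, 1060, 973 and 1491 afterwards. It was the earliest of the 3 to pass the rule, at 2.24-fold lower at 24 hrs, and was at 1.92-fold at 48 hrs, just short of the rule. The median difference of the family was -0.35, -0.71, -0.94, -1.25, -1.21 and -0.47 (log2) in order of time, and it was below normal under every scaling. Without normalization between arrays it was -0.94 at 72 hrs, and then 0 of the 3 genes passed the rule at 72 hrs and 1 at 120 hrs.

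Atp2a2 encodes SERCA2, the pump that refills the endoplasmic reticulum with calcium. Its intensity was 6489 on the normal array and 5338, 4639, 4062, 3515, 3195 and 4654 in order of time. Each array up to 120 hrs was thus dimmer than the one before it, and the 168 hrs array was close to that of 24 hrs. At 72 and 120 hrs the gene was 2.32-fold and 2.36-fold lower, although without normalization it was at -0.88 (log2) at 72 hrs, short of the rule. Atp2a3, a second pump of the same store, was dim and did not follow it, with 34.1 on the normal array, 7.29 (not detected) at 24 hrs and 61.3 at 120 hrs.

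**Figure D3:**
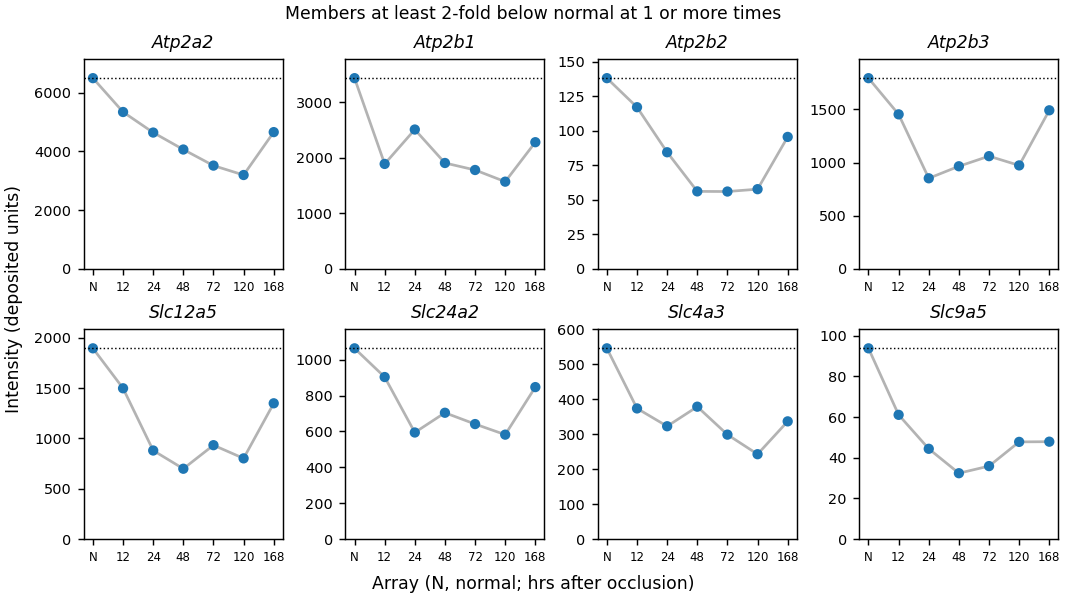
Each panel shows the deposited intensity (linear axis from 0) of 1 gene on the 7 arrays, with the normal array (N) at the left and a dotted line at its value. Filled points were detected. In all 8 panels the 6 later arrays lie below the line and the 168 hrs point lies above that of 120 hrs, although by only 47.9 against 47.8 for Slc9a5.

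Exchangers use the sodium gradient to remove calcium, and 1 of the detected genes passed the rule. Slc24a2, which encodes a potassium-dependent sodium-calcium exchanger of neurons, had an intensity of 1063 on the normal array and 903, 594, 704, 641, 582 and 847 afterwards. It stood at the edge of the size rule, 2.0-fold lower at 72 hrs and 2.09-fold at 120 hrs, and median scaling took the value at 72 hrs to -0.96 (log2). Without normalization it was at -0.71 and -0.84 (log2) at these times and did not pass. Slc24a4, of the same family, had 150 on the normal array, 189 at 12 hrs and between 113 and 131 from 24 hrs on, and never passed the rule. The sodium-calcium exchanger genes Slc8a1, Slc8a2 and Slc8a3 were dim on all arrays. Slc8a3, the 1 of the 3 detected on all 7 arrays, read 27.6 on the normal array and between 24.6 and 39.5 after occlusion, with values on both sides of normal.

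Slc12a5 was the member furthest below normal from 24 to 120 hrs. It encodes KCC2, the potassium-chloride cotransporter that keeps chloride low in mature neurons. Its intensity was 1895 on the normal array and 1498, 880, 699, 933, 802 and 1349 in order of time. At 12 hrs it was 1.28-fold lower, and from 24 to 120 hrs it was 2.28-fold, 2.76-fold, 2.45-fold and 2.66-fold lower. The 4 arrays from 24 to 120 hrs lay together, and those of 12 and 168 hrs lay between them and normal. At 48 hrs it ranked 75 from the bottom among 9368 genes. Slc12a4, which encodes the widely expressed cotransporter KCC1, lay above normal on all 6 arrays with 44.9 on the normal array, 106 at 120 hrs and 99.8 at 168 hrs. At 168 hrs its fold was 1.72, so it did not pass the rule. The other cotransporters of the family were Slc12a8, at most 10.8 on any array, and Slc12a3, which was not detected. Slc12a2, the sodium-dependent chloride importer of the family, was not analysed here.

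Among carriers of bicarbonate and protons, 1 gene of each family passed the rule. Slc4a3 encodes the chloride-bicarbonate exchanger AE3 of neurons and heart. Its intensity was 546 on the normal array and 374, 323, 379, 299, 243 and 337 afterwards, with all 6 below normal. At 72 and 120 hrs it was 2.14-fold and 2.48-fold lower, although without normalization it was at -0.81 (log2) at 72 hrs, short of the rule. Slc9a5, a sodium-hydrogen exchanger gene expressed mainly in brain, had 93.8 on the normal array and 61.1, 44.4, 32.4, 35.9, 47.8 and 47.9 afterwards. It was 2.22-fold lower at both 48 and 72 hrs, earlier than Slc4a3, and at 168 hrs was still 1.65-fold lower. Under an offset of 50 it was at -0.83 (log2) at both 48 and 72 hrs and passed at neither, and without normalization it was at -0.93 at 72 hrs. Slc9a2, of the same family, was likewise below normal on all 6 arrays, at most 1.73-fold. Slc4a2, the widely expressed exchanger AE2, instead read 210 on the normal array, 308 and 316 at 12 and 24 hrs and between 227 and 292 later, within 1.35-fold of normal throughout. Slc4a1ap matched the rule by its symbol but encodes an adaptor protein and not a carrier, and its intensity was between 607 and 725 on all 7 arrays.

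The median of the neuronal markers lay below normal on all 6 arrays after occlusion, as these 8 genes did. All 11 markers were detected on each array, and their summed intensity was 32620 on the normal array and 32056, 29063, 27092, 25287, 18275 and 26939 in order of time. At 12, 24 and 48 hrs none of the 11 was at least 2-fold lower, and the median difference was -0.06, -0.34 and -0.47 (log2). 3 of the 11 were at least 2-fold lower at 72 hrs and 5 at 120 hrs, with none higher, and the median difference was -0.81 and -0.90 (log2). Of the 7 striatal neuron markers, 6 were at least 2-fold lower at each of these times, with medians of -1.88 and -3.11. The medians of the astrocyte and oligodendrocyte markers were also below normal on all 6 arrays. They were at -0.4 and -0.44 at 72 hrs and at -0.47 and -0.58 at 120 hrs. Whether the carriers followed the number of neurons was not tested.

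Sequences before the start of 4 of the genes are shown to set 3 genes that were low together beside Slc39a12, a zinc carrier that was high. The 250 bases before the start are from RefSeq (GRCr8), which listed a start for 53 of the 67 members and 9 of the 13 past the size rule. Atp2b1 lies at chr7:35622211-35622460 on the plus strand, Atp2b2 at chr4:148763654-148763903 on the minus strand, Slc12a5 at chr3:174115583-174115832 on the plus strand and Slc39a12 at chr17:82262107-82262356 on the plus strand. Capitals mark letters of any of 6 motifs searched on both strands.
Atp2b1: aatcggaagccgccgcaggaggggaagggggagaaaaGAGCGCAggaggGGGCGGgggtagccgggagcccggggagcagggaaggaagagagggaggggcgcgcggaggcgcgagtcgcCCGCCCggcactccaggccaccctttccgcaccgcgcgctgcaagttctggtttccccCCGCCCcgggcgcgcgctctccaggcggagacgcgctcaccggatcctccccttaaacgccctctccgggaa
Atp2b2: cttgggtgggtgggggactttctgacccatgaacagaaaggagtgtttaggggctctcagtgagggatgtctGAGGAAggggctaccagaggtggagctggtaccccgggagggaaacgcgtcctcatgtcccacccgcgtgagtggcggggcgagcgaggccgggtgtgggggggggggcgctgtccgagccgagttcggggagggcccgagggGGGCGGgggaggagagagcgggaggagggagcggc
Slc12a5: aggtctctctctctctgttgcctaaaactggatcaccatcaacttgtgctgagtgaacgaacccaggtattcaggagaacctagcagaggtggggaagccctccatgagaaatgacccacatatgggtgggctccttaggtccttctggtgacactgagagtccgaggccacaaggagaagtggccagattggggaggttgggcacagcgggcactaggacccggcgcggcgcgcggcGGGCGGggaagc
Slc39a12: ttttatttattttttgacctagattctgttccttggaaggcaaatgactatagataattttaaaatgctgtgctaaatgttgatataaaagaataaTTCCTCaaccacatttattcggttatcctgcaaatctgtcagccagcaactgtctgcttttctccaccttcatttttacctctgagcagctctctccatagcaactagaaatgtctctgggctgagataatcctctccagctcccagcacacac

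The motifs were the core of the metal response element in both its forms, TGCACNC or TGCGCNC, the GC box GGGCGG, the cAMP response element TGACGTCA, the AP-1 site TGANTCA and the PU.1 core GAGGAA, and matches of different motifs could overlap. Atp2b1 had 3 GC boxes and a metal response core, Atp2b2 a GC box and a PU.1 core, Slc12a5 a GC box at -12 from the start, and Slc39a12 a PU.1 core at -154 with no GC box. The share of G and C was 72.8%, 69.2%, 59.2% and 38.4% in that order, against a median of 51.2% over all listed starts. Over the 7 low genes with a listed start it was 59.2% to 80.0%, and 5 of these held a GC box. Slc39a6, the other high gene with a listed start, was at 69.6% and held GC boxes at -242 and -163 and a PU.1 core. The high genes thus did not share the base composition of Slc39a12. The GC box was found before 29 of 53 members (54.7%) and before 30.5% of all 33469 starts. The form TGCGCNC was found before 19 members (35.8%) and 11.8% of all starts, and TGCACNC before 9 (17.0%) and 10.3%. The PU.1 core stood before 13 members (24.5%) and 23.3% of all starts, the AP-1 site before 1 member and 6.34%, and the cAMP response element before 0 members and 1.59%. A member counted as matched if any of its listed starts matched, whereas the share of all starts was taken over single starts. The starts were not matched for base composition, and a match is a run of letters, not a binding site.

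Sodium pump genes stayed within 2-fold of normal. The sodium pump restores the sodium and potassium gradients, and its beta subunit brings the catalytic alpha subunit to the membrane. Of the alpha subunits Atp1a4, the form of the testis, was the one measured here and exceeded its detection limit on 1 array, and the others were not analysed here. Atp1b1, the beta subunit typical of neurons, had an intensity of 7776 on the normal array and 9116, 6796, 7403, 7352, 5708 and 6841 in order of time, 1.64-fold below normal at 120 hrs. Atp1b2, the beta subunit of astrocytes, had 2357 on the normal array and 2499, 1741, 2131, 3520, 3860 and 3047, lowest at 24 hrs and 1.43-fold above normal at 120 hrs. Atp1b3 had 2620 and then 3055, 3688, 4079, 5072, 5159 and 3282, above normal on all 6 arrays and at most 1.68-fold. The 3 beta subunits therefore stood on different sides of normal at 120 hrs, with differences of -0.71, 0.51 and 0.75 (log2). The summed intensity of 7 astrocyte markers was 31272 on the normal array and 44321 at 120 hrs, although 6 of the 7 were not at least 2-fold higher and the median marker was at -0.47.

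Both sodium-phosphate cotransporter genes lay at or above normal. Slc20a1, which takes up phosphate, had an intensity of 1527 on the normal array and 2364, 2194, 2506, 1921, 2213 and 1642 afterwards, at most 1.55-fold higher. Slc20a2, linked to brain calcification in humans, had 668 on the normal array and 1405 at 72 hrs, where it was 1.66-fold higher. Neither passed the size rule at any time.

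Of the zinc carriers Slc39a12 had the largest single difference above normal, at 72 hrs. The ZIP proteins bring zinc and other metals into the cytosol, and Slc39a12 encodes ZIP12, a zinc importer known mainly from brain. Its intensity was 180 on the normal array and 423, 483, 591, 1300, 661 and 370 in order of time. All 6 arrays were above normal, and 72 hrs was well apart from the others. The gene was 2.08-fold, 2.22-fold, 2.73-fold, 5.03-fold and 2.77-fold higher from 12 to 120 hrs and 1.82-fold at 168 hrs, and it was the 1 member past the rule at 12 hrs, where an offset of 50 took it to 0.96 (log2). By log2 difference Slc39a6 stood above it at 24 hrs, Slc39a4 at 48 hrs, and Slc30a7 and Slc39a6 at 168 hrs. The normal array did not detect Slc39a6 or Slc39a4. Their bounds at these times, at least 2.14-fold, 1.81-fold and 1.62-fold, were below the folds of Slc39a12. At 72 hrs Slc39a12 ranked 182 from the top among 9409 genes.

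2 further ZIP genes passed the rule, both against a normal array that did not detect them. Slc39a6, which encodes ZIP6, was not detected on the normal array, where it read 5.21, and read 25.0, 53.9, 45.1, 50.6, 58.5 and 30.3 afterwards. At 24 hrs it was higher by at least 2.14-fold and at 120 hrs by at least 2.11-fold, and the bound was 1.90-fold at 48 and 72 hrs, below 2. With an offset of 50 it was between 0.66 and 0.77 (log2) from 24 to 120 hrs and passed at none of these times. Slc39a4, the intestinal importer ZIP4, was detected on 2 arrays, with 42.1 at 48 hrs and 16.9 at 120 hrs, and its bound at 48 hrs was 1.81-fold. The same offset took it to 0.81 (log2) at that time. With bounds held to the same limit, 2 members in place of 4 were higher at 48 hrs and 3 in place of 4 at 72 hrs. Slc39a7, which encodes ZIP7 of the endoplasmic reticulum, read between 685 and 863 on all 7 arrays, within 1.09-fold of normal. The median difference of the ZIP family was 0.06, 0.12, 0.35, 0.25, 0.30 and -0.01 (log2), and the last of these was 0.01 with no normalization between arrays.

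Zinc exporters of the ZnT family move zinc out of the cytosol, and 1 of them passed the rule. Slc30a7, which encodes ZnT7 of the Golgi, had an intensity of 20.6 on the normal array and 41.1, 43.1, 73.6, 108, 97.2 and 61.8 afterwards. It was 2.42-fold higher at 72 hrs and 2.26-fold at 120 hrs, and at 48 hrs was 1.98-fold higher, just outside the rule. With an offset of 50 in place of 16 it was at 0.89 and 0.81 (log2) at these 2 times and did not pass. Slc30a3, which encodes ZnT3 that loads zinc into synaptic vesicles, had 42.8 on the normal array and 31.7, 19.3, 14.4, 25.7, 22.7 and 31.1 afterwards, below normal on all 6 arrays and at most 1.83-fold. Slc30a1, the exporter at the cell surface, read between 38.0 and 58.8 on all 7 arrays. Slc30a5, of the secretory pathway, read between 416 and 577.

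**Figure D4:**
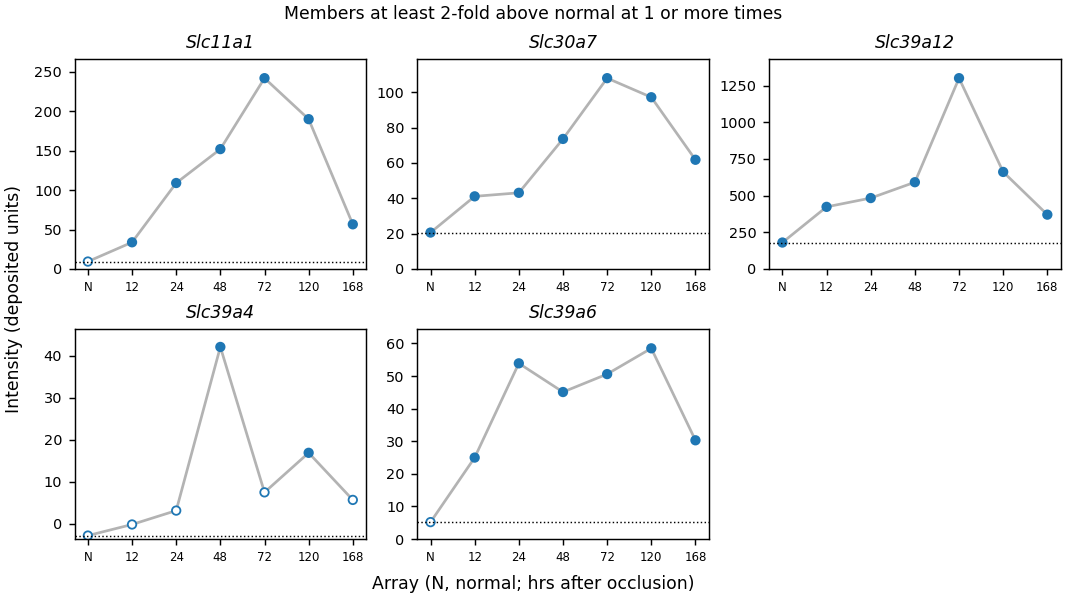
Each panel shows the deposited intensity (linear axis) of 1 gene on the 7 arrays, with the normal array (N) at the left and a dotted line at its value. Filled points were detected and open points were not. Slc39a12 peaks at 1300 and Slc11a1 at 242, both at 72 hrs, and Slc39a4 is detected at 48 and 120 hrs.

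Slc11a1 was the member furthest above normal from 24 to 168 hrs. It encodes NRAMP1, which pumps iron and manganese out of the phagosome of macrophages. It was not detected on the normal array, at 9.38, and read 33.8, 109, 152, 242, 190 and 56.6 in order of time. The fold was at least 1.66 at 12 hrs, at least 3.65 at 24 hrs, at least 4.75 at 48 hrs, at least 6.37 at 72 hrs, at least 5.31 at 120 hrs and at least 2.37 at 168 hrs. It was the 1 member past the rule at 168 hrs, where an offset of 50 took it to 0.79 (log2). On the same arrays the summed intensity of 8 microglia and macrophage markers, all detected on each array, was 3208 for normal and 4692, 8416, 12418, 28887, 42321 and 26520, so the markers were brightest at 120 hrs and Slc11a1 at 72 hrs. The part of cell number in the value of Slc11a1 was not tested.

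The remaining metal carriers were nearer to normal. Slc11a2, which encodes the iron importer DMT1, read between 623 and 884 on all 7 arrays and was within 1.13-fold of normal. Slc40a1, which encodes ferroportin, the iron exporter, had 117 on the normal array and 138, 190, 195, 140, 181 and 132 afterwards, at most 1.44-fold higher. Slc41a1, a magnesium carrier, had 74.6 on the normal array and between 33.2 and 46.9 on the 6 others. It was between 1.52-fold and 1.8-fold lower at every time, so the 6 arrays lay apart from normal and close to each other without passing the rule. A second probe of Slc41a1 was detected on no array, and the same held for the second probes of Slc4a4 and Slc39a1.

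Partner genes were read from lists that hold none of the members. Of 8 genes for small proteins that bind the pumps, 7 were detected. In order of time 0, 1, 2, 2, 2 and 1 of them were at least 2-fold higher. The shares of all genes were 3.16%, 4.55%, 6.04%, 8.28%, 9.09% and 5.01%. At least 2-fold lower were 1, 2, 2, 1, 1 and 0, against 0.903%, 2.69%, 2.63%, 4.01%, 4.78% and 0.914% of all genes. Fxyd5, which modulates the sodium pump and cell adhesion, was 2.20-fold to 5.44-fold higher from 24 to 168 hrs. Fxyd7, a sodium pump regulator of brain, was 2.09-fold, 3.66-fold, 4.56-fold, 4.82-fold and 3.00-fold lower from 12 to 120 hrs and 1.63-fold lower at 168 hrs. Nkain4, whose family binds the beta subunit, was 3.62-fold lower at 24 hrs and 3.13-fold at 48 hrs. These named partners were drawn from those past the rule, so their passing it was set by that choice. Fxyd2 also passed it, 2.42-fold, 3.61-fold and 2.91-fold higher at 48, 72 and 120 hrs. Fxyd1, Fxyd3 and Fxyd6 passed it at no time.

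Of 8 kinases and binding partners that act on the chloride cotransporters, 1 passed the rule, and it was higher at all 6 times. The share of all genes that were higher was between 3.16% and 9.09% at these times. This was Sgk1, a kinase induced by stress and glucocorticoids, with an intensity of 1429 on the normal array and 4856, 4330, 4587, 8955, 5151 and 4273 afterwards. Stk39, which encodes the kinase SPAK that phosphorylates the cotransporters, stayed within 1.69-fold of normal. Of 12 carbonic anhydrase genes, which supply bicarbonate, 7 or 8 were detected and none was higher at any time. At 24, 48 and 120 hrs 1, 1 and 2 were lower, where all genes stood at 2.69%, 2.63% and 4.78%. Car2 was 2.93-fold lower at 24 hrs and 2.47-fold at 48 hrs, and Car4 and Car7 were 2.20-fold and 2.14-fold lower at 120 hrs. Of 18 genes of metal storage and sensing, 16 were detected at 48 and 72 hrs and 17 at 120 hrs, and 4 were higher at each of these times, where all genes stood at 6.04%, 8.28% and 9.09%. None was lower at any time (all genes 0.903% to 4.78%). Ftl1, which encodes the ferritin light chain, had an intensity of 3059 on the normal array and 14296 at 120 hrs, 3.81-fold higher. Cp, the iron-oxidising ceruloplasmin, was 13.4-fold higher at 72 hrs, its highest fold. Hmox1, which frees iron from heme, peaked earlier, with folds of 22.7 and 32.4 at 12 and 24 hrs, and its fold was down to 5.34 by 168 hrs.

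The arrays of 12 and 24 hrs (acute) were compared with those of 48 to 168 hrs (recovery), following the study's division at 48 hrs, which also counts earlier times not analysed here as acute. Time points stood in for replicates, so p-values measure the spread between times and not between animals. limma with Benjamini-Hochberg adjustment over 9449 genes called 0 genes higher (0%) and 0 lower (0%), and 0 of the 55 members tested. At an unadjusted p under 0.05 there were 5 members (9.09%) and 23.4% of all genes. The values of both phases did not overlap for 11 members and for 34.3% of all genes. Both shares of the members were below those of all genes, a difference that was not tested.

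The smallest p among the members was that of Slc39a8, which encodes ZIP8, a carrier of zinc, iron and manganese. It read 18.7 and 24.0 on the acute arrays and 70.8, 54.3, 80.9 and 40.0 on the recovery arrays, against 40.3 on the normal array. Recovery was higher by 0.81 ± 0.18 (log2, SE) with an adjusted p of 0.080 (limma). The acute values were thus below normal, and those of recovery were at or above it. Slc30a7 was higher by 0.61 ± 0.15 (adjusted p = 0.089, limma). Slc39a3, which encodes ZIP3, read 102 and 118 and then 183, 183, 173 and 145, higher by 0.44 ± 0.13 (adjusted p = 0.12, limma). Of the genes lower in recovery, Slc4a2 differed by -0.34 ± 0.12 (adjusted p = 0.16), Slc24a4 by -0.46 ± 0.18 (adjusted p = 0.18) and Atp2a2 by -0.53 ± 0.23 (adjusted p = 0.22, all limma). The 3 genes with the smallest p were zinc carriers, but none passed the threshold of 0.05. The ZIP and ZnT families supplied 14 and 7 of the 67 members. Other zinc carriers were lower in recovery, among them Slc39a9 at -0.24 and Slc30a5 at -0.21 (log2). Leaving out the 48 hrs array gave 361 genes higher (3.82%) and 204 lower (2.16%) of 9449 in recovery, and again 0 members, the smallest adjusted p being 0.067.

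**Figure D5:**
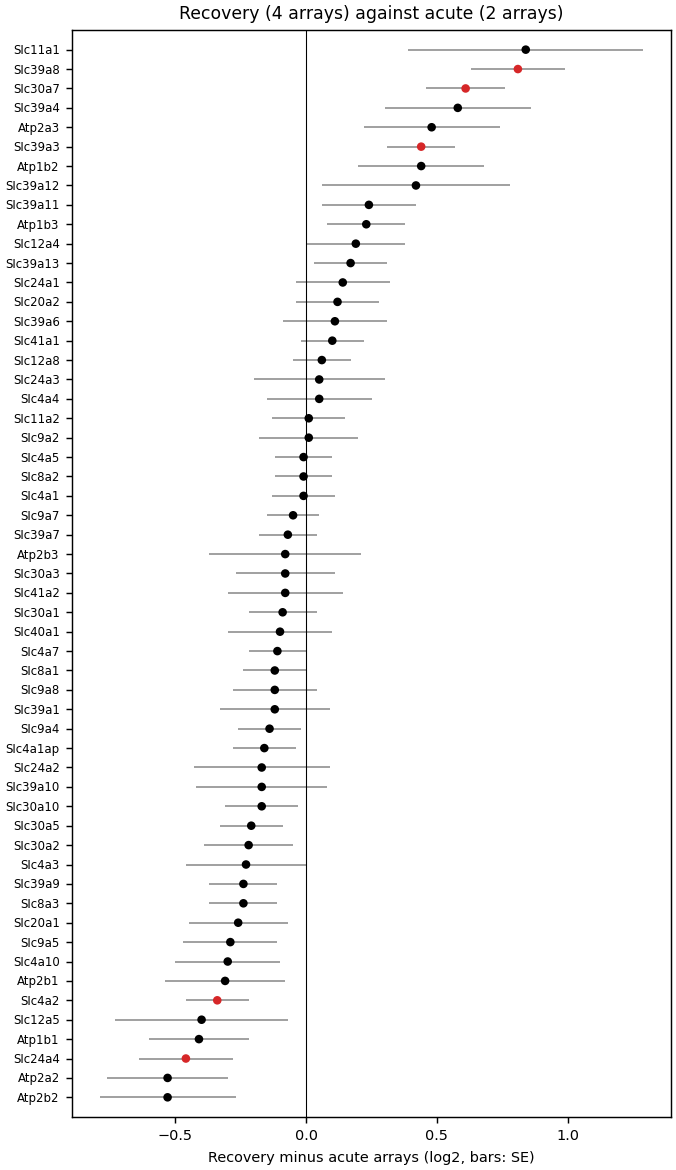
Points give the mean difference (log2) of the 4 recovery arrays from the 2 acute arrays for the 55 members tested, and bars give the SE from limma. Red points had an unadjusted p under 0.05, and none passed after adjustment. Slc39a8, at 0.81, and Atp2a2 and Atp2b2, both at -0.53, lie near the ends.

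By 168 hrs most of the members that had been past the rule were nearer to normal. All 11 members past the rule at 120 hrs lay closer to normal at 168 hrs, and so did 97.8% of all genes past it. Of the 11, 1 was still past the rule at 168 hrs, Slc11a1, while 521 of 1302 such genes were. The plasma membrane pump genes were at 1.54-fold (Atp2b1), 1.38-fold (Atp2b2) and 1.23-fold (Atp2b3) below normal and Slc12a5 at 1.42-fold. Of the 8 low genes Slc9a5 and Slc4a3 were furthest below, at 1.65-fold and 1.62-fold. The neuronal markers were at a median of -0.44 (log2) on this array, with none of 11 at least 2-fold lower.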

How the data were processed

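Messenger RNA was measured on 7 Illumina rat arrays that lay on 1 chip, in an order of positions that followed time, so position and time cannot be told apart. The deposited values were linear intensity values that the authors had background-subtracted, per the study's methods with BeadStudio, and per the submitters' processing notes with GenomeStudio 1.8.0. A normalization to 5S rRNA is also named, but not the arrays it was applied to. A further table with 48 columns of 12 arrays of another chip matched no sample and was not used.

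Of 22523 probes, 13793 carried 1 gene symbol, for 13337 genes, and each gene was represented by its brightest probe. The members had 70 probes, and 3 of them had more than 1. The normal-exponential background model (limma 3.58.1, R 4.3.3) was fitted per array with an offset of 16, and the log2 values then underwent quantile normalization. To set the detection limit, the negative values of an array were mirrored and their 98th percentile was taken. No time could be tested against normal, and phases were compared by limma's two-sided moderated test (trend and robust settings), with genes seen on 2 or more of the 6 post-occlusion arrays. This test was also run on simulated data, whose spread between arrays was taken from its result on these arrays.

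Members and lists were chosen with earlier results of these data known. Named were all members past the size rule, the brightest of each family, the 3 smallest p per direction between phases and up to 3 partners per list, and others are given as context. Alternatives were median scaling, no scaling, no background model, offsets of 50 and 4, the mean of all probes, a limit of 1.5-fold, no filter on dim genes and leaving out each array.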

Additional observations from a re-analysis of the deposited data

Results flagged for a closer look

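Among the 4 recovery arrays, 1 array stood apart from the others for 2 of 26 members examined, and it was that of 168 hrs both times. For Atp2b2 the gap to the nearest array was 0.853 of the whole range, and for Atp2b3 it was 0.843. Both genes were brighter at 168 hrs, at 95.5 and 1491, than at 48, 72 and 120 hrs. Among replicates chance alone sets about 1 in 20 such groups apart, but these 4 arrays are different times, so that rate need not hold. Of all genes past the size rule at 120 hrs, 97.8% lay nearer to normal at 168 hrs. The cause was not tested.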

How the results depend on the processing

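No paired analysis was possible because each group had 1 array. No direction of a named difference past the size rule turned under any alternative. Of 37 such differences, 36 stayed past the rule with median scaling, 26 with no normalization between arrays, 22 with an offset of 50, and all 37 with an offset of 4, without the background model and with the mean of all probes. With an offset of 50 the number of members past the rule at 12, 48, 72 and 168 hrs was 0, 3, 7 and 0, against 1, 7, 12 and 1. With no normalization between arrays it was 6 at 72 hrs. With an offset of 4, and also without the background model, it was 3 at 168 hrs. With a limit of 1.5-fold it was 8, 17, 18, 22, 23 and 10 in order of time. The number of members called between the phases was 0 under all alternatives, leaving out each array included (range 0 to 0), with the smallest adjusted p between 0.067 and 0.358, while all genes called went from 0 to 565 without the 48 hrs array and to 6 without the 24 hrs array. Holding bounds to the same limit, chosen after seeing the data, gave 5 at 48 hrs and 11 at 72 hrs. Every difference rests on the 1 normal array, and genes near the detection limit have folds that are too small.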
